A study of Mus musculus with 13 samples.

Results

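The 38 genes described here encode chaperones of the cytosol and of mitochondria, their co-chaperones, and the heat shock transcription factors Hsf1 and Hsf2, in Neuro2a, a mouse neuroblastoma cell line. They were chosen by function, as named genes with at least 1 FPKM (fragments per kilobase of transcript, relative to all mapped fragments, so a level per length) in at least 3 of the 13 libraries, a condition that 13137 of the 34856 genes with complete values met. All 38 met it because it was part of the choice, and all 38 also passed the filter for testing at each passage. In the study, experimental vials frozen in 10% DMSO lost their liquid nitrogen over 10 h, were held for 24 h at 4 °C, and were frozen again at -80 °C for 72 h before thawing and plating. Control vials were stored and plated in the same way but stayed in normal cryostorage throughout. Poly(A) RNA was sequenced at passage 1 (4 experimental and 3 control libraries), shortly after the stressed cells had regained rapid growth, and at passage 6 (3 experimental and 3 control libraries), when they appeared normal. The experimental libraries come only from cells that survived and grew out, and the labels do not say whether replicates are separate vials, flasks or RNA aliquots, so p-values measure the spread between these libraries, which may be technical.

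Heat shock proteins of the HSP70 class bind exposed hydrophobic stretches of unfolded proteins and release them in a cycle driven by ATP. J proteins deliver substrates and stimulate the ATPase, exchange factors such as the HSP110 proteins release the nucleotide, and the adaptor STIP1 passes clients on to HSP90, which completes the folding of kinases and steroid receptors. The ring-shaped chaperonins enclose their clients: CCT folds actin and tubulin in the cytosol, and HSP60 with its lid HSP10 folds imported proteins in the mitochondrial matrix. Heat shock factor 1 (HSF1) is held inactive by chaperones, and on proteotoxic stress it binds heat shock elements, inverted repeats of the letters GAA, in front of many of these genes.

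Heat shock element letters were present in the promoters of some of the genes. RefSeq promoter windows (GRCm38.p6, 250 bases before to 50 bases after each start) matched 29 of the 38 genes, and not Hspa8, Hspa9, Hsp90aa1, Hsp90ab1, Hsf1, Dnajc5, St13, Ppid and Cct4. An element of 3 units, GAANNTTCNNGAA on either strand, was found in windows of 5 of the 29 genes (17.2%), against 0.662% of the 27025 genes with a window. The sites are shown because HSF1 acts on chaperone genes through such repeats. Each is printed 5′ to 3′ on the strand of its gene, with the repeat units in capitals and 3 flanking bases in lower case. Chromosome coordinates of the sites include the flanking bases on each side, and positions from a start cover only the capitals.
Hspd1: gccTTCCGGAAGGTTCTAGAAcgg
Hspe1: ccgTTCTAGAACCTTCCGGAAggc
Hsph1: agaTTCTGGAAAGTTCtcc
Chordc1: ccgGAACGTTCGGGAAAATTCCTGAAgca
Dnajb6: cgaGAATCTTCCGGAAcgc
The Hspd1 (chr1:55088056-55088079, minus strand) and Hspe1 (chr1:55088056-55088079, plus strand) sites are a single stretch of the genome read from either side. It lies between the Hspe1 start and 1 of the 2 Hspd1 RefSeq starts. These positions are 216 bases apart, and from them the genes are transcribed away from each other. The site spans bases -144 to -127 before that Hspd1 start and -89 to -72 before the Hspe1 start. The second Hspd1 start, chr1:55088243, lies beyond the Hspe1 start, chr1:55088148. From there transcription of Hspd1 runs across the site, and the window of that start held no 3-unit match. The Hsph1 site (chr5:149636285-149636303, minus strand) covers bases 16 to 28 after 1 RefSeq start and 37 to 49 after a second one. The Chordc1 site (chr9:18292260-18292288, plus strand) runs across the start, from -4 to 19, and holds 3 overlapping matches. The Dnajb6 site (chr5:29735849-29735867, plus strand) is at -46 to -34 from 1 RefSeq start and at -127 to -115 from a second one. Of these carriers, Hsph1 and Chordc1 were lower in experimental cells at passage 1, whereas Hspd1, Hspe1 and Dnajb6 were not called at either passage. Over all tested genes, 18.9% were called lower at passage 1. Hspa4l, Cdc37, Hspa14 and Fkbp4, each called at a single passage, had windows without the 3-unit form. Hspa8, Hspa9, Hsp90aa1, Hsp90ab1 and St13, also called, had no window. Whether the sites have a part in any change was not tested. The 2-unit forms overlap the longer one: GAANNTTC was in windows of 10 of the 29 genes (34.5%, against 9.04% of all genes) and TTCNNGAA in windows of 8 (27.6%, against 9.6%). The CCAAT box, by comparison, was found in 14 of the 29 genes (48.3%) and in 41.1% of all genes. A match is a description of these letters, not evidence of binding.

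**Figure D1:**
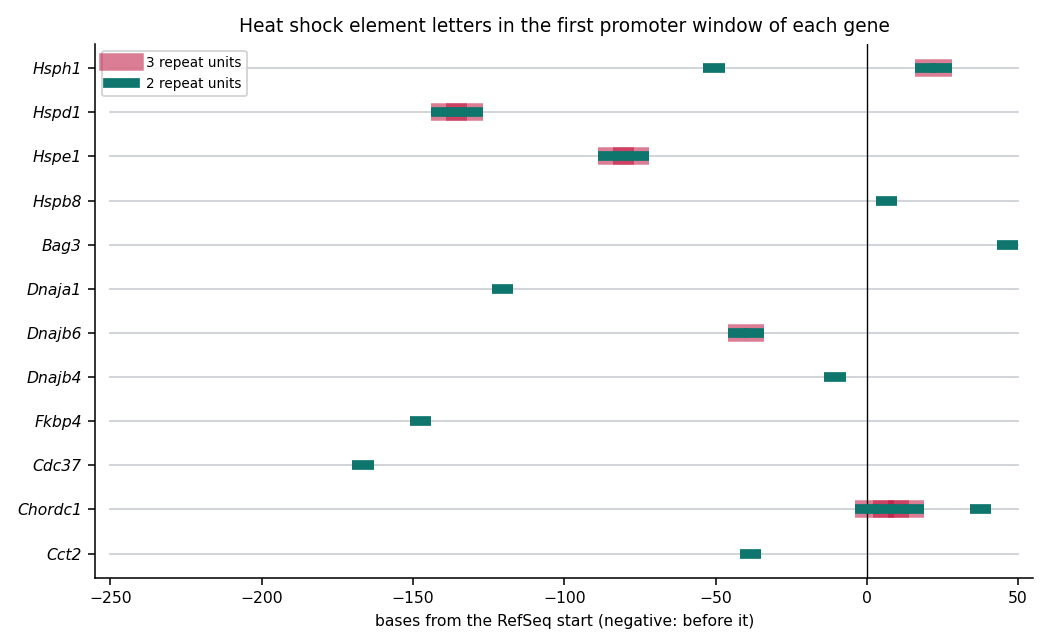
Position of heat shock element letters (x axis: bases from the RefSeq start, negative before it) in the first promoter window of the 12 genes that hold any there. Wide pale red blocks mark matches to the 3-unit form, darker where they overlap, and narrow green blocks the 2-unit forms; Hspd1, Hspe1, Hsph1, Chordc1 and Dnajb6 carry the 3-unit form.

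The libraries differed in more than their group. Neuroblastoma genes such as Hand2 (58.8 to 114 FPKM) and Chgb (132 to 648 FPKM) were present in all 13 libraries, while Nefl and Nefm were at 0 or near it in most. Summed over 20 colon epithelium markers, passage 1 libraries held 8.72 to 208 FPKM in experimental cells and 222 to 502 FPKM in controls, and passage 6 libraries 8.67 to 115 FPKM and 123 to 280 FPKM, with at least 19 of the 20 markers reaching 1 FPKM in some library of every group. Cartilage markers summed to 7.82 to 34.2 and 6.36 to 48.2 FPKM at passage 1, and to 16.2 to 18.6 and 32.8 to 57.4 FPKM at passage 6, in the same order of groups. Of these 12 markers, 8 and 9 reached 1 FPKM in some library at passage 1, and 2 and 10 at passage 6. Matn3 had 5.44 to 14.3 FPKM over all 13 libraries. At passage 6 Col2a1 had 0.179 to 0.325 FPKM in experimental libraries and 11.8 to 24.9 FPKM in controls. At passage 1 it was as low in control 1 (0.0702 FPKM) and experimental library 4 (0.32 FPKM). In passage 6 experimental library 2, liver markers summed to 202 FPKM and glia and myelin markers to 48.5 FPKM, and in library 3 to 162 and 36.98 FPKM. No other library exceeded 1.14 FPKM of liver or 22.8 FPKM of glia and myelin markers, and 10 of the 12 liver markers reached 1 FPKM in passage 6 experimental cells, against 0 in each of the other 3 groups. Mitochondrial transcripts made up 13.6 ± 1.03% of FPKM in experimental libraries and 14.7 ± 0.124% in controls at passage 1 (SD, n = 4 and 3, exact two-sided permutation p = 0.1714). At passage 6 they made up 25.8 ± 0.881% and 27.3 ± 0.201% (n = 3 and 3, exact permutation p = 0.1, the smallest that this design allows). The part of these sums and shares in the chaperone values was not tested.

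At passage 1 the 38 genes leaned slightly lower in the survivors, as did all tested genes, with few called changes. Hspa8, the constitutive HSP70, Hsp90aa1, the stress-responsive HSP90 isoform, the exchange factors Hsph1 and Hspa4l, the mitochondrial HSP70 gene Hspa9 and the HSP90 partner gene Chordc1 fell, by 1.12- to 1.33-fold. Only Cdc37, which brings kinases to HSP90, rose (1.12-fold). So 6 of 38 were called lower and 1 higher (limma, adjusted p under 0.05 over 12469 genes), or 15.8% and 2.63%, while 18.9% of all tested genes were called lower and 11.5% higher; in either direction 18.4% of the 38 were called, against 30.4% of all tested genes. The median log2 change was -0.08 for the 38 genes and -0.05 for all tested genes. With equal FPKM totals these medians were -0.04 and -0.02, and with median-of-ratios scaling -0.03 and -0.01. All libraries of one group lay below or above all of the other for 17 genes, 15 lower and 2 higher in experimental cells, where 42.6% of all tested genes did not overlap, 26.9% lower and 15.8% higher. In bulk RNA a lower level in each cell and fewer cells that express a gene cannot be told apart. With equal FPKM totals or median-of-ratios scaling the split was 2 higher (Cdc37 and Dnajb6) and 4 lower (Hspa8, Hsph1, Hsp90aa1 and Chordc1), and all tested genes split into 1723 higher and 1810 lower or 1857 and 1744, against 1434 and 2358 as deposited. Leaving out any control left 3 lower calls (Hspa8, Hsp90aa1 and Chordc1) and no higher one, in fits that called 2053 to 2087 of all genes, against 3792 with every library.

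At passage 6 the same gene set was split in direction. Hspa8, the second HSP90 gene Hsp90ab1, the HSP70 and HSP90 co-chaperone gene St13 and the HSP90-bound immunophilin gene Fkbp4 rose, by 1.16- to 1.27-fold, and the HSP70 genes Hspa9 and Hspa14 fell. That is 4 of 38 higher (10.5%) and 2 lower (5.26%), against 8.98% and 10.8% of the 12458 genes tested, and 19.8% in either direction. Groups did not overlap for 17 genes, 11 higher and 6 lower in experimental cells, where 41.7% of all tested genes did not overlap, 17.4% higher and 24.3% lower. The median log2 change of the 38 was 0.02, and that of all tested genes -0.04. With equal totals, median-of-ratios or quantile scaling no gene was called lower, and 4 were called higher, with Cct2 in place of Fkbp4 after quantile scaling. Leaving out any of the 3 controls ended all 6 calls, in fits where only 670 to 767 of all genes were called, against 2462 with every library. The lower calls of Hspa9 and Hspa14 also ended without experimental library 2 or 3. The higher call of Fkbp4 ended without library 3 (adjusted p = 0.0526).

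The change itself differed between the passages for 5 of the 38 genes (13.2%), against 14.7% of the 13019 genes tested. All 5, Hspa8, Hsph1, Hsp90aa1, Hsp90ab1 and St13, were higher relative to controls at passage 6 than at passage 1, a direction called for 8.46% of all genes, while 6.27% were called lower. The difference was 0.55 ± 0.062 on the log2 scale for Hspa8 (limma estimate ± SE, adjusted p = 0.00046), 0.48 ± 0.082 for Hsp90aa1 (0.00349) and 0.47 ± 0.13 for Hsph1 (0.0273). It was 0.40 ± 0.072 for Hsp90ab1 (0.00438) and 0.31 ± 0.071 for St13 (0.0135). Hspa8, Hsp90aa1, Hsp90ab1 and St13 kept their call without any single library, and Hsph1 lost it without any 1 of the 6 controls (adjusted p = 0.0515 to 0.0647). Over the 38 genes the median difference was 0.06 (31 positive and 7 negative), and over all genes 0.02. Levels cannot be tested across the passages, since each passage was deposited as its own table, but 37 of the 38 genes had a lower mean FPKM at passage 6 than at passage 1 in both the experimental and the control group. The exception in both was Hsf1. The median ratio of passage 6 to passage 1 was 0.656 in experimental cells and 0.597 in controls, against 0.839 and 0.83 over all 13137 genes, in libraries whose mitochondrial share was also higher at passage 6.

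**Figure D2:**
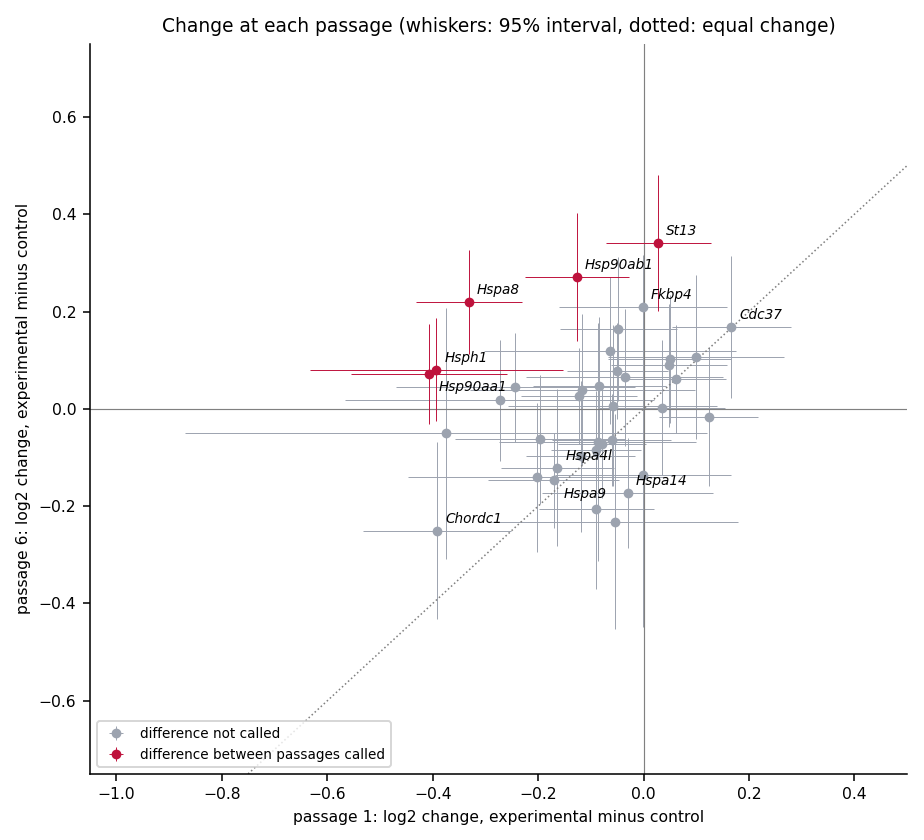
Log2 change of each of the 38 genes, experimental minus control, at passage 1 (x axis) and passage 6 (y axis), with 95% intervals from limma. Red points are the 5 genes whose change differed between the passages; they lie above the dotted line of equal change, and Hspa8 is lower at passage 1 and higher at passage 6.

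Hspa8 moved in opposite directions at the 2 passages, while Hspa9 was lower at both. Hspa8 encodes the constitutive HSP70 of the cytosol, which folds new proteins and uncoats clathrin vesicles, and only Hsp90ab1 and, in passage 1 experimental cells, Cct2 had a higher group mean. At passage 1 it stood at 403, 377, 384 and 411 FPKM in experimental libraries, against 497, 495 and 494 FPKM in control libraries. The groups did not overlap, and the controls were nearly equal. The level was 1.26-fold lower in experimental cells (log2 change -0.33 ± 0.044, adjusted p = 0.00156). At passage 6 it stood at 348, 363 and 346 FPKM in experimental libraries, against 298, 305 and 303 FPKM in control libraries, again without overlap but in the other direction (1.16-fold higher, log2 change 0.22 ± 0.045, adjusted p = 0.018). Hspa9 encodes mortalin, the HSP70 that pulls proteins into the mitochondrial matrix. Its values were 195, 206, 220.2 and 223 FPKM in experimental libraries, against 238, 237 and 238 FPKM in control libraries at passage 1. Later, at passage 6, they were 137, 132 and 134 FPKM in experimental libraries, against 151, 147 and 148 FPKM in control libraries. Experimental libraries were below every control at both passages, by 1.13-fold and 1.11-fold (adjusted p = 0.0453 and 0.0476), and neither call held when the libraries were scaled to equal totals (0.15 and 0.104). Hspa14, an HSP70-like protein of the ribosome-associated complex, was at 24.7, 26.1, 21.3 and 22.4 FPKM in experimental libraries, against 24.2, 24.3 and 23.7 FPKM in control libraries at passage 1, where the groups overlapped. By passage 6 it was at 13.9, 13.04 and 13.9 FPKM in experimental libraries, against 15.5, 15.6 and 15.3 FPKM in control libraries, 1.13-fold lower without overlap (adjusted p = 0.0442).

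The HSP110 genes encode relatives of HSP70 that act as its nucleotide exchange factors and, with J proteins, help dissolve aggregates. Hsph1 had 40.9, 43.8, 31.2 and 40.8 FPKM in experimental libraries, against 51.5, 51.4 and 51.3 FPKM in control libraries at passage 1. Every experimental library was lower, library 3 most, while the controls were nearly equal (1.31-fold lower, log2 change -0.39 ± 0.10, adjusted p = 0.0242). The call ended without any 1 control (0.075 to 0.076). At passage 6 the levels were 32.5, 30.9 and 31.4 FPKM in experimental libraries, against 29.9, 29.1 and 30.5 FPKM in control libraries, with the experimental libraries just above the controls and no call (log2 change 0.08, 95% interval -0.03 to 0.19). Hspa4l had 11.5, 11.6, 12.1 and 12.3 FPKM in experimental libraries, against 13.9, 13.2 and 13.1 FPKM in control libraries at passage 1, 1.12-fold lower without overlap (adjusted p = 0.0313), a call that equal totals ended (0.0988). At passage 6 its values were 9.27, 7.91 and 9.095 FPKM in experimental libraries, against 9.72, 9.24 and 9.82 FPKM in control libraries and overlapped (log2 change -0.12, not called). Hspa4, the most abundant of this group, had 75.2, 77.2, 68.9 and 73.5 FPKM in experimental libraries, against 80.03, 81.2 and 79.6 FPKM in control libraries at passage 1. Its groups did not overlap, yet the change was not called (log2 change -0.12, 95% interval -0.23 to -0.01, adjusted p = 0.0853). At passage 6 Hspa4 had 49.9, 48.2 and 48.2 FPKM in experimental libraries, against 48.5, 47.2 and 47.96 FPKM in control libraries and the groups overlapped.

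The HSP90 genes were called at different passages, Hsp90aa1 lower at passage 1 and Hsp90ab1 higher at passage 6. Hsp90aa1 had 228, 232, 195 and 219 FPKM in experimental libraries, against 291, 295 and 282 FPKM in control libraries at passage 1. Every experimental library was far under the lowest control (1.33-fold lower, log2 change -0.41 ± 0.064, adjusted p = 0.00309). Its passage 6 levels were 177, 169 and 168 FPKM in experimental libraries, against 163, 161 and 165 FPKM in control libraries, above every control but not called (log2 change 0.07, 95% interval -0.03 to 0.18). Hsp90ab1, the constitutive isoform and the most abundant of the 38 genes in every library, had 1374, 1407, 1308 and 1389 FPKM in experimental libraries, against 1537, 1487 and 1461 FPKM in control libraries at passage 1, lower in each experimental library but not called (log2 change -0.13, adjusted p = 0.0569). At passage 6 it had 1017, 1105 and 1109.8 FPKM in experimental libraries, against 905, 876 and 894 FPKM in control libraries, 1.21-fold higher (log2 change 0.27 ± 0.056, adjusted p = 0.018). Experimental library 1 was the lowest of the 3 experimental libraries at passage 6 and still above every control. Because both isoforms are given per transcript length, their levels can be set against each other. Hsp90ab1 was 6.03 to 6.72 times Hsp90aa1 in experimental libraries and 5.04 to 5.28 times in controls at passage 1, and 5.74 to 6.62 times and 5.43 to 5.56 times at passage 6, so the ratio did not overlap between the groups at either passage. The mitochondrial HSP90, Trap1, had 42.9 to 52.7 FPKM in experimental libraries and 53.97 to 56.2 FPKM in controls at passage 1 (log2 change -0.20, adjusted p = 0.0666), and was not called at passage 6 (log2 change -0.06).

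**Figure D3:**
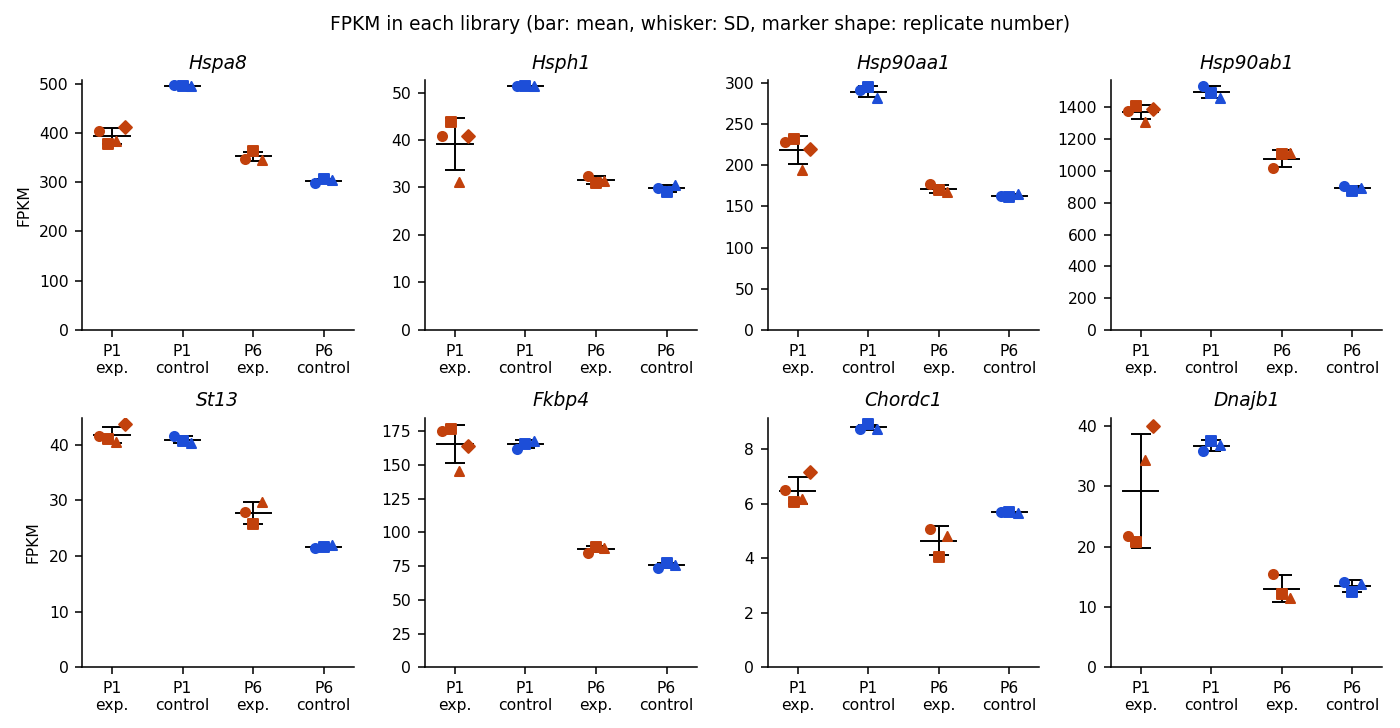
FPKM of 8 genes (y axes, each from 0) in the experimental and control libraries of passage 1 (P1) and passage 6 (P6); points are libraries, bars means and whiskers SD (n = 4, 3, 3 and 3). Hspa8 lies below its controls at passage 1 and above them at passage 6, St13 and Fkbp4 lie above every control at passage 6 and overlap with controls at passage 1, and Dnajb1 splits among the passage 1 experimental libraries.

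Most co-chaperone genes of HSP90 and HSP70 were not called. Of 9 measured, 1 rose and 1 fell at passage 1 (11.1% each, against 11.5% and 18.9% of all tested genes). At passage 6, 2 rose (22.2%, against 8.98%). Chordc1, a zinc-binding partner of HSP90 that is induced by heat, had 6.51, 6.07, 6.18 and 7.18 FPKM in experimental libraries, against 8.74, 8.92 and 8.75 FPKM in control libraries at passage 1. All experimental libraries were below all controls (1.31-fold lower, log2 change -0.39 ± 0.061, adjusted p = 0.003), a call that held in all 20 alternatives, like that of Hspa8. At passage 6 it had 5.06, 4.05 and 4.82 FPKM in experimental libraries, against 5.71, 5.703 and 5.67 FPKM in control libraries, again without overlap but not called (log2 change -0.25, adjusted p = 0.0612). Cdc37, the kinase-loading co-chaperone, had 19.2, 18.5, 17.6 and 17.8 FPKM in experimental libraries, against 15.97, 15.8 and 16.8 FPKM in control libraries at passage 1, 1.12-fold higher (adjusted p = 0.0359), and it lost the call without any 1 library but experimental library 3 (0.054 to 0.135). At passage 6 it had 10.6, 11.5 and 11.7 FPKM in experimental libraries, against 10.5, 9.92 and 9.36 FPKM in control libraries, just short of overlapping and not called (log2 change 0.17, adjusted p = 0.0981). St13, which binds HSP70 and slows its nucleotide release, had 41.6, 40.98, 40.5 and 43.7 FPKM in experimental libraries, against 41.5, 40.7 and 40.3 FPKM in control libraries at passage 1, where the groups overlapped (log2 change 0.03, 95% interval -0.07 to 0.13). Its passage 6 values were 27.9, 25.7 and 29.7 FPKM in experimental libraries, against 21.5, 21.6 and 21.95 FPKM in control libraries, the largest rise of the 38 genes at that passage (1.27-fold, log2 change 0.34 ± 0.060, adjusted p = 0.011).

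Fkbp4 encodes FKBP52, an immunophilin that helps steroid receptors on HSP90. At passage 1 it had 175, 177, 146 and 164 FPKM in experimental libraries, against 162, 166 and 168 FPKM in control libraries, with the control values inside the experimental range. Passage 6 values were 84.9, 89.4 and 88.4 FPKM in experimental libraries, against 73.8, 77.4 and 75.6 FPKM in control libraries, 1.16-fold higher without overlap (adjusted p = 0.0204). Its glucocorticoid-induced relative Fkbp5, which opposes it on the receptor, had 8.55 to 8.77 FPKM in experimental libraries and 9.09 to 9.73 FPKM in controls at passage 1 and was called at neither passage (log2 changes -0.12 and -0.10). Stip1, the adaptor between HSP70 and HSP90, was the most abundant co-chaperone gene, with 184, 189, 168 and 178 FPKM in experimental libraries, against 183, 187 and 186 FPKM in control libraries at passage 1. Passage 6 levels of Stip1 were 148, 167 and 171 FPKM in experimental libraries, against 143, 148 and 141 FPKM in control libraries. Stip1 was not called at passage 6 although the groups did not overlap (log2 change 0.16, 95% interval 0.02 to 0.31). Ahsa1, which activates the HSP90 ATPase, had 50.9, 51.2, 34.6 and 42.3 FPKM in the 4 experimental libraries of passage 1, all under the control range of 51.95 to 54.9 FPKM, but the scatter left it uncalled (log2 change -0.27 ± 0.13). The immunophilin gene Ppid and the p23 gene Ptges3 were not called (log2 changes -0.20 and -0.09 at passage 1, -0.14 and -0.07 at passage 6). The values of Ptges3, 49.2 to 137 FPKM over the 13 libraries, are uncertain, because a processed pseudogene, Ptges3-ps, was listed at 53.4 to 140 FPKM.

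None of the 7 J protein genes was called by limma at either passage. At an unadjusted p under 0.05, 2 passed at passage 1, against 5363 of all 12469 tested genes. At passage 6, 1 passed, against 4540 of 12458. At passage 1 Dnajb1 separated the experimental libraries from each other. Dnajb1, the main heat-induced partner of HSP70 and a target of HSF1, had 21.9, 20.7, 34.4 and 39.96 FPKM in experimental libraries, against 35.8, 37.6 and 36.95 FPKM in control libraries at passage 1. Experimental libraries 1 and 2 were far below the controls, library 3 just below and library 4 above them, which gave the widest spread of the 38 genes (coefficient of variation 32.3%) and no call (log2 change -0.37 ± 0.21, adjusted p = 0.22). The stress-inducible HSP70 genes Hspa1a and Hspa1b, which are nearly identical and so share reads, were too low to be tested. Hspa1b had 0.319, 0.154, 2.91 and 2.98 FPKM in experimental libraries, against 0.641, 0.781 and 0.956 FPKM in control libraries at passage 1. Hspa1a had 0.0828, 0.06797, 0.9598 and 0.891 FPKM in experimental libraries, against 0.514, 0.492 and 0.516 FPKM in control libraries. In both genes libraries 1 and 2 were under the controls, as for Dnajb1, and libraries 3 and 4 above them. At passage 6 Dnajb1 had 15.5, 12.2 and 11.5 FPKM in experimental libraries, against 14.2, 12.4 and 13.9 FPKM in control libraries, with overlap. Hspa1a had 0.03199, 0.348 and 0.251 FPKM in experimental libraries, against 0.0735, 0.121 and 0.122 FPKM in control libraries at passage 6. Hspa1b then had 0.142, 0.473 and 0.299 FPKM in experimental libraries, against 0.165, 0.254 and 0.196 FPKM in control libraries. There library 1 was the lowest of the experimental libraries for both and the highest for Dnajb1. These 3 genes were singled out after their values were seen. Dnaja2 had 76.7, 79.8, 73.5 and 80.4 FPKM in experimental libraries, against 77.3, 75.1 and 72.5 FPKM in control libraries at passage 1, and at passage 6 45.6, 41.9 and 43.00 FPKM in experimental libraries, against 38.9, 41.4 and 42.1 FPKM in control libraries. The groups overlapped at both passages. Dnaja1, a farnesylated partner of HSP70, had 32.4, 33.7, 26.2 and 32.95 FPKM in experimental libraries, against 33.6, 31.98 and 31.9 FPKM in control libraries at passage 1. At passage 6 Dnaja1 had 19.9, 16.4 and 18.01 FPKM in experimental libraries, against 18.1, 17.8 and 18.03 FPKM in control libraries, again with overlap. Dnajb6, which suppresses the aggregation of polyglutamine proteins, was above the controls in all 4 experimental libraries of passage 1 (23.95 to 25.05 against 21.9 to 22.5 FPKM) and narrowly missed a call (log2 change 0.12 ± 0.041, adjusted p = 0.0519). The synaptic vesicle J protein gene Dnajc5, Dnajc7 and Dnajb4 had log2 changes of 0.05, -0.24 and -0.05 at passage 1.

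The mitochondrial chaperonin pair was not called at either passage. Hspd1, which encodes HSP60 and has a pseudogene, Hspd1-ps3, listed at 7.33 to 12.9 FPKM, had 277, 297, 221 and 277 FPKM in experimental libraries, against 292, 286 and 287 FPKM in control libraries at passage 1. At passage 6 the Hspd1 levels were 204, 173 and 188 FPKM in experimental libraries, against 182, 187 and 179 FPKM in control libraries. Hspe1, which encodes the HSP10 lid, had 81.5, 79.8, 66.02 and 76.95 FPKM in experimental libraries, against 75.9, 74.6 and 77.2 FPKM in control libraries at passage 1. The passage 6 levels of Hspe1 were 42.5, 28.3 and 31.7 FPKM in experimental libraries, against 36.5, 36.4 and 38.4 FPKM in control libraries. In both genes experimental library 3 was the lowest library of passage 1, and at passage 6 experimental library 1 was the highest library and library 2 the lowest. When passage 6 experimental libraries 2 and 3, which carried liver and myelin transcripts, were both left out, library 1 alone against the controls gave 9 higher calls among the 38, Hspd1 and Hspe1 with them, and 1 lower, where 1145 of 12144 genes were called higher and 1315 lower. With a single experimental library that fit assumes that it varies as the controls do. Without library 1, libraries 2 and 3 gave 7 higher and 6 lower calls, with Hspe1 among the lower, where 1846 of 12305 genes were called higher and 2411 lower. Hspd1 stood at 3.34 to 3.72 times Hspe1 in experimental libraries and 3.72 to 3.85 times in controls at passage 1, and at 4.802 to 6.12 and 4.66 to 5.14 times at passage 6.

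The CCT ring, which folds actin and tubulin, was not called by limma for any of its 7 subunit genes here at either passage. At an unadjusted p under 0.05, 1 passed at passage 1 and 0 at passage 6, against 5363 of 12469 and 4540 of 12458 tested genes. The subunits differed in FPKM. Cct2 had 394, 415, 381 and 400.2 FPKM in experimental libraries, against 385, 379 and 379 FPKM in control libraries at passage 1. At passage 6 Cct2 had 246, 230.4 and 229 FPKM in experimental libraries, against 225, 224 and 226 FPKM in control libraries. Cct5 had 202, 199.8, 189 and 201 FPKM in experimental libraries, against 208, 201 and 205 FPKM in control libraries at passage 1. At passage 6 Cct5 had 127, 128 and 124 FPKM in experimental libraries, against 118, 120.4 and 121 FPKM in control libraries. Cct2 and Cct5 were the 2 highest and Cct3 the lowest of the 7 in the means of all 4 groups. The log2 changes of the subunits ran from -0.09 (Cct4) to 0.06 (Cct2) at passage 1, with 5 negative, and from -0.08 (Cct4) to 0.12 (Cct3) at passage 6, with 2 negative. For Cct2, whose estimate was among the tighter ones, the 95% interval was -0.03 to 0.16 at passage 1 and -0.05 to 0.17 at passage 6, both of which include 0. Experimental library 3 of passage 1 was the lowest of its group for each subunit but Cct4.

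Hspb8, a small heat shock protein gene, and Bag3, whose product links it to HSP70 and to autophagy of damaged proteins, were not called. Hspb8 had 109.7, 113, 110.2 and 113 FPKM in experimental libraries, against 118, 116 and 119 FPKM in control libraries at passage 1, lower in every experimental library by a small margin (log2 change -0.08, 95% interval -0.16 to 0.01). At passage 6 Hspb8 had 68.99, 63.7 and 66.01 FPKM in experimental libraries, against 69.7, 68.6 and 70.8 FPKM in control libraries, and the groups overlapped. Bag3 had 68.2, 60.4, 69.5 and 66.7 FPKM in experimental libraries, against 69.2, 69.95 and 71.3 FPKM in control libraries at passage 1. At passage 6 Bag3 had 50.3, 57.1 and 56.6 FPKM in experimental libraries, against 52.9, 54.00 and 51.5 FPKM in control libraries. Of the transcription factors, Hsf1 had 12.2, 10.1, 9.86 and 10.3 FPKM in experimental libraries, against 9.62, 9.81 and 10.02 FPKM in control libraries at passage 1, where experimental library 1 alone lay well above the controls. At passage 6 Hsf1 had 11.6, 13.9 and 12.9 FPKM in experimental libraries, against 11.7, 12.4 and 11.4 FPKM in control libraries, with overlap. Hsf2 had 6.04, 6.06, 5.66 and 5.96 FPKM in experimental libraries, against 6.32, 6.48 and 6.31 FPKM in control libraries at passage 1, and at passage 6 5.13, 4.58 and 5.52 FPKM in experimental libraries, against 6.02, 5.86 and 6.11 FPKM in control libraries. Experimental libraries were below all controls at both passages, and Hsf2 was called at neither (log2 changes -0.09 and -0.21, adjusted p = 0.184 and 0.0795).

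**Figure D4:**
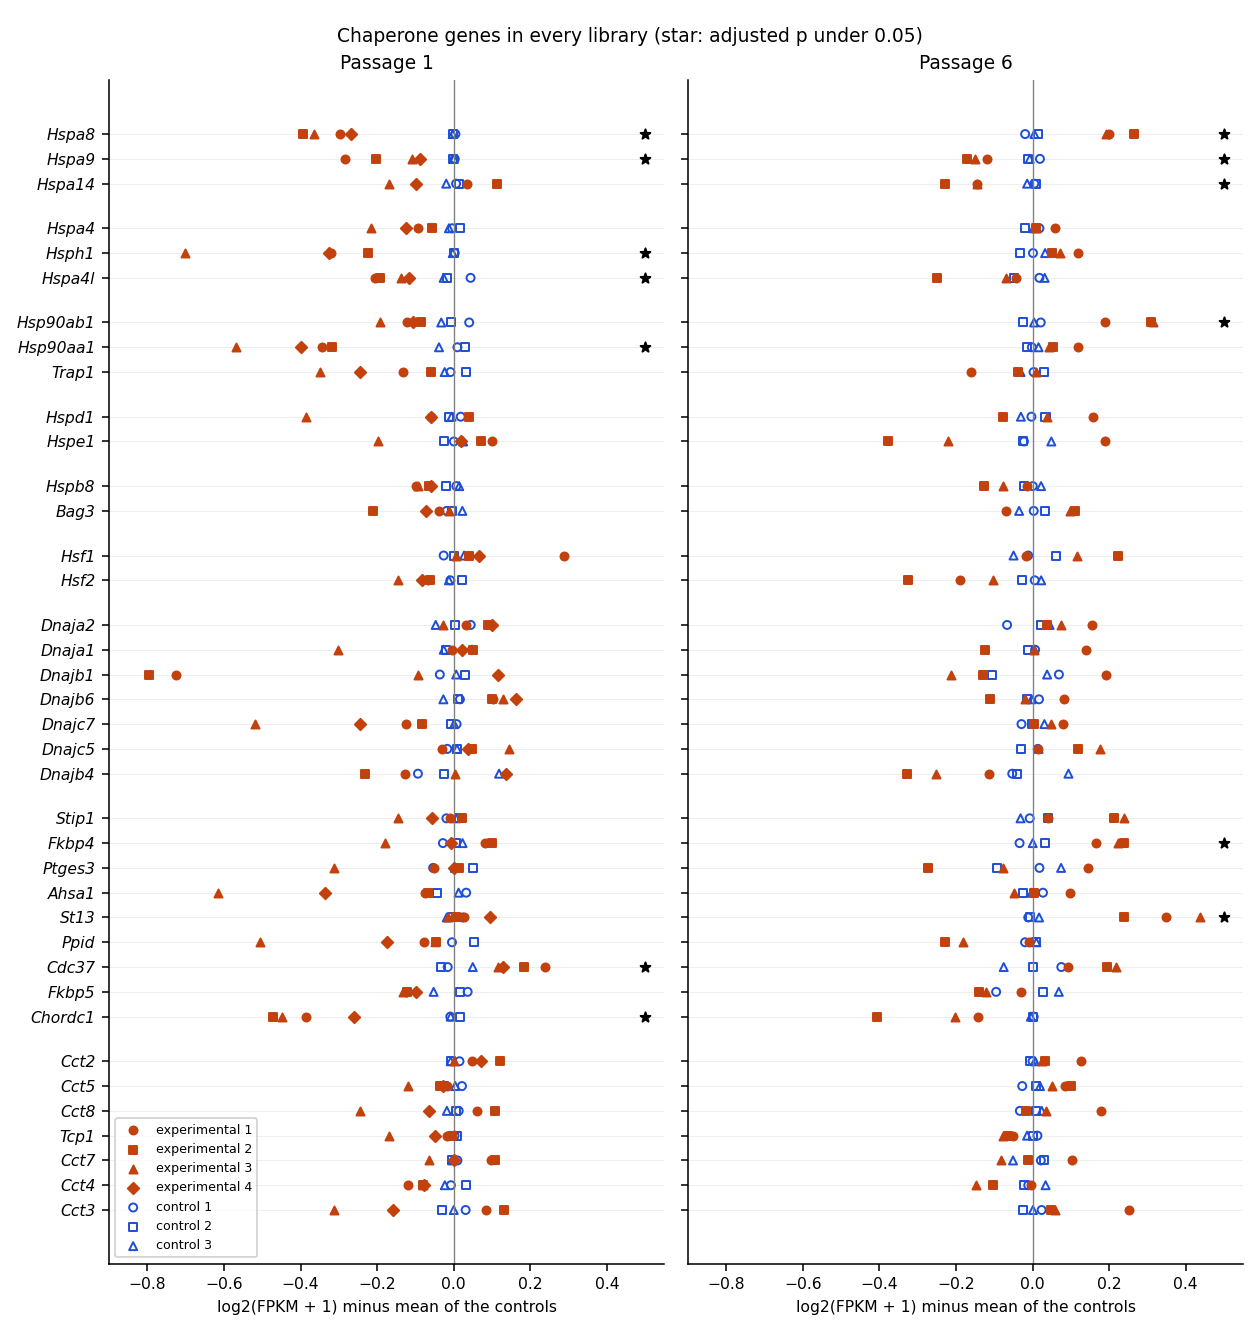
The 38 genes by role (y axis), each library as log2(FPKM + 1) minus the mean of the 3 controls of its passage (x axis); filled red symbols are experimental and open blue symbols control libraries. Stars mark called genes, 7 at passage 1 and 6 at passage 6; control libraries lie close to 0, and experimental library 3 (triangle) is the lowest for many genes at passage 1.

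The experimental libraries were more scattered than the controls. The median coefficient of variation of the 38 genes was 6.15% among experimental libraries and 1.67% among controls at passage 1, and 6.06% and 2.07% at passage 6. Over all tested genes it was 9.12% and 4.27% at passage 1, and 9.19% and 4.56% at passage 6, so wider scatter in experimental libraries held for genes in general. At passage 1, experimental library 3 was the lowest of the 4 for 27 of the 38 genes (71.1%), a position it held for 35.3% of all tested genes. Its median against the mean of the controls was -0.16 on the log2 scale, against -0.06, -0.04 and -0.06 in libraries 1, 2 and 4, while the median of all tested genes was -0.06 in library 3. The same library had the lowest mitochondrial share of its passage, 12.3%, and the lowest colon sum, 8.72 FPKM, and whether these have a part in its chaperone levels was not tested. Without library 3 there were again 6 lower calls and 1 higher, the same 7 genes. At passage 6, library 1 was the highest of the 3 for 25 of the 38 genes (65.8%, against 39.3% of all tested genes). Summed over the 38 genes, experimental libraries held 1.469% to 1.586% of all FPKM and controls 1.603% to 1.612% at passage 1, and 0.988% to 1.05% and 0.921% to 0.923% at passage 6. Abundant genes weigh most in these sums. At passage 6, Hsp90ab1 alone had a mean of 1077 of 3498 FPKM in experimental libraries and 892 of 3218 FPKM in controls.

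**Figure D5:**
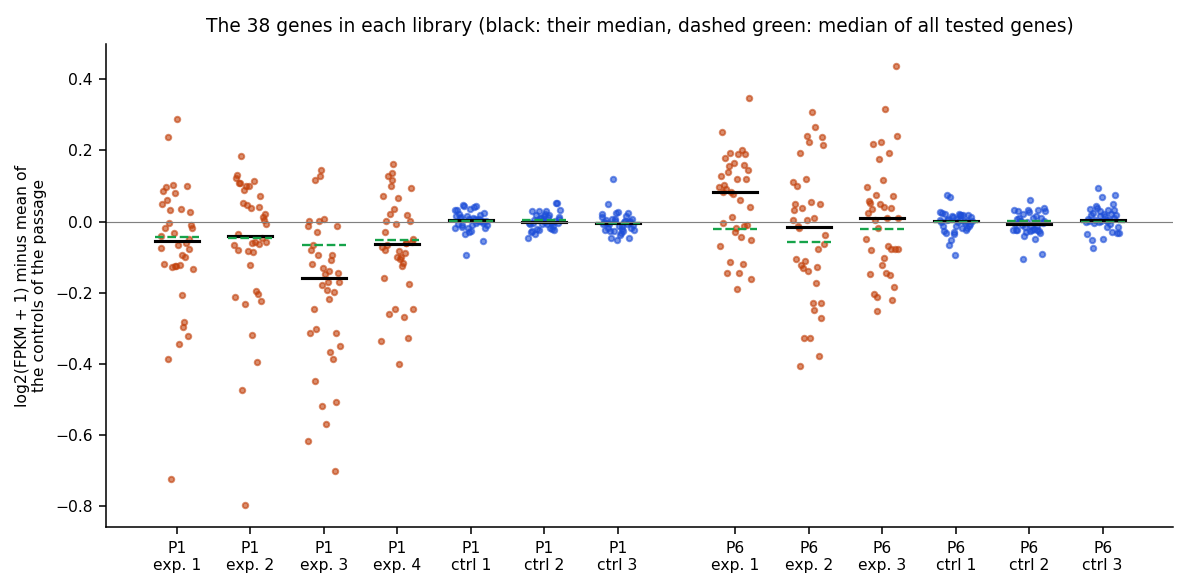
Each of the 38 genes (points) in each library (x axis) as log2(FPKM + 1) minus the mean of the controls of its passage (y axis). Black bars are medians of the 38 genes and dashed green bars medians of all tested genes; the medians of the 38 genes are -0.16 in passage 1 experimental library 3 and 0.08 in passage 6 experimental library 1.

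Other chaperone genes of the cytosol and mitochondria were tested alongside, 72 listed and 66 tested. At passage 1, 21 fell and 3 rose (31.8% and 4.55%, against 18.9% and 11.5% of all tested genes), with a median log2 change of -0.10. At passage 6, 3 fell and 4 rose (4.55% and 6.06%, against 10.8% and 8.98% of all tested genes), with a median of 0.00. The change differed between the passages for 7 (10.6%, against 14.7% of all genes), all higher at passage 6, a direction called for 8.46% of all genes. Of 15 further J protein genes tested, 6 fell at passage 1 (40%, against 18.9% of all tested genes). They were led by Dnaja3, the mitochondrial J protein that modulates mortalin (1.25-fold lower, adjusted p = 0.00363), Dnajb14 (1.33-fold) and Dnajc24 (1.29-fold). Dnajb14 had 0.817 to 0.969 FPKM in experimental libraries and 1.52 to 1.56 FPKM in controls at passage 1. It therefore passed the filter only through the 3 controls. Without any 1 control Dnajb14 was not tested, so its call could not be checked against leaving out a control. Of these J protein genes only Dnajb12, which was named after its values were seen, was called at passage 6 (1.23-fold higher, 0.0246). That is 6.67% of the 15, against 8.98% of all tested genes called higher. Among 8 HSP70 cofactor genes, Sgta, which hands membrane proteins to the tail-anchor insertion route, fell at passage 1 (1.23-fold, 0.00173). The exchange factor gene Bag2 rose at both passages (1.197- and 1.31-fold), and Hspbp1 rose at passage 6 (1.31-fold, 0.0424). Of the 8, 12.5% were called lower and 12.5% higher at passage 1, against 18.9% and 11.5% of all tested genes. At passage 6, 25% were called higher, against 8.98%.

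Of 12 further HSP90 co-chaperone genes, 4 fell at passage 1 (33.3%, against 18.9% of all tested genes). Among them, the myosin chaperone gene Unc45a was 1.14-fold lower. At passage 6 the HSP90-bound phosphatase gene Ppp5c rose 1.28-fold. Among 15 genes of tubulin and actin folding, 4 fell and 2 rose at passage 1 (26.7% and 13.3%, against 18.9% and 11.5% of all tested genes). The tubulin cofactor genes Tbce and Tbcd were 1.33- and 1.196-fold lower, and Txndc9, which binds CCT, 1.16-fold lower. Tbce also fell at passage 6 (1.17-fold). Of 10 mitochondrial chaperone and protease genes, 5 fell and none rose at passage 1 (50% lower, against 18.9% of all tested genes). The 5 include Timm44, which anchors mortalin at the import channel (1.18-fold lower, adjusted p = 0.00946), Grpel1, its exchange factor (1.19-fold), and the matrix protease gene Clpp (1.19-fold). Grpel1, like Hspa9, was also called lower at passage 6 (1.13-fold, 0.0421), a call that ended in 12 of 19 alternatives, equal totals among them (0.101). The passage 6 calls of Dnajb12, Hspbp1 and Ppp5c ended in 8, 9 and 8 of the 19.

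Of 11 further heat shock genes, 6 were tested, and Hspb6, a small heat shock protein gene, was the only one called (1.19-fold lower at passage 1, limma adjusted p = 0.0117). That is 16.7% of the 6, against 18.9% of all tested genes called lower. The 5 left out by the filter were Hspa1a, Hspa1b, Hspa1l, Hspb1 and Hsf4, with Hspb1 at 0 to 0.709 FPKM over the 13 libraries. The 20 chaperone genes of the endoplasmic reticulum belong to the compartment nearest in function. Of them, 2 were higher and 1 lower at passage 1 (10% and 5%, against 11.5% and 18.9% of all tested genes). At passage 6, 3 were higher and 1 lower (15% and 5%, against 8.98% and 10.8%). Their median log2 changes were -0.03 and -0.01. Txndc5, a disulfide isomerase gene, rose at both passages (1.17- and 1.300-fold), the Hspa5 exchange factor gene Sil1 fell at passage 6 (1.26-fold), and Sdf2l1, which binds the Hspa5 complex, fell at passage 1 (1.199-fold). For none of the 20 was the change called different between the passages (limma, adjusted p under 0.05), against 14.7% of all genes tested. At an unadjusted p under 0.05, 2 of the 20 passed, against 4031 of all 13019 genes tested.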

How the data were processed

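Poly(A)-selected, strand-marked (dUTP) libraries from 13 Neuro2a samples were analysed from 2 deposited tables of FPKM, 1 per passage, with 34857 genes each. The submitters' processing notes name mm10 and the tools HISAT2, cutadapt, StringTie, edgeR and DESeq2, with no role; versions are not given in the sources used here. The deposited FPKM are not counts, so the depth is unknown and no count test was run. FPKM share a total within a library, so a few abundant transcripts can move all others. One gene with an empty cell was left out.

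Genes that reached 1 FPKM in 3 or more libraries of a passage were fitted, passage by passage, with limma 3.58.1 (R 4.3.3) on log2(FPKM + 1), a scale that understates changes of low genes, with an intensity trend and equal weights. P-values were two-sided and Benjamini-Hochberg adjusted over all tested genes (threshold 0.05). The difference between passages was a contrast over all 13 libraries. The code was tested on simulated data. Values of every library are given for called genes and for the 2 most abundant per role, and up to 3 called genes by adjusted p for other lists. The members and lists were chosen with earlier results of these data known. Alternatives changed the pseudocount (0.1, 5), filter, scaling, eBayes settings, weights, replicate block and libraries. Coordinates and promoters are GRCm38. Some genes of the other lists are not reported here by name.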

Additional observations from a re-analysis of the deposited data

Results flagged for a closer look

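The change differed between the passages, by a limma contrast of passage 6 minus passage 1, for 5 of the 38 chaperone genes, all in the positive direction. The difference on the log2 scale was 0.55 for Hspa8, 0.479 for Hsp90aa1, 0.473 for Hsph1, 0.397 for Hsp90ab1 and 0.313 for St13. For Hspa8 every experimental library was below every control at passage 1 and above every control at passage 6.

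Among the 4 experimental libraries of passage 1, Cct4 in library 1 stood apart from the other 3, with a gap of 0.949 of the whole range, past the limit of Dixon's test. The library had 107 FPKM, against 110.3 to 110.5 FPKM in the others, so the range itself was narrow. It was the only such gap among the 38 groups examined, and chance gives about 1 in 20.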

How the results depend on the processing

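No called change named in the text reversed direction under any alternative, while Hspe1, not called at passage 6, was called higher with experimental library 1 alone and lower without it. At passage 1, where 1 gene was called higher and 6 lower, higher calls were 2 with equal totals, median-of-ratios, quantile scaling or array weights, and 0 with controls 2 and 3 against experimental libraries 1 to 3. Lower calls were 11 with array weights and 2 with those 5 libraries, in fits that called 3095 and 543 of all genes lower, against 2358. With no filter the 1 higher call at passage 1 was Dnajb6 in place of Cdc37. At passage 6, with 4 higher and 2 lower, higher calls were 2 with no filter and 9 without experimental libraries 2 and 3. Lower calls were 0 with no filter, any of the 3 scalings or no trend, 1 with pseudocount 5, robust eBayes or without libraries 2 and 3, and 4 with array weights. With 1 fit over both passages there were again 2 lower calls at passage 6, but of Hsf2 and Chordc1 in place of Hspa9 and Hspa14. For the difference, with 5 higher and 0 lower, higher calls were 3 with no filter and 8 with array weights, which also gave 1 lower. Leaving out each library gave 0 to 1 higher and 3 to 8 lower calls at passage 1, 0 to 7 and 0 to 6 at passage 6, and 4 to 6 and 0 to 1 for the difference. The cause was not tested. Deviations of same-numbered samples from their group means had correlations of 0.166, -0.192 and 0.239 at passage 1, and -0.066, -0.06 and 0.033 at passage 6. Other pairs had -0.354 to 0.263 at passage 1 and -0.092 to 0.106 at passage 6. With so few libraries per group, these values cannot decide whether the numbers pair samples. With a replicate block there were 0 higher and 3 lower calls at passage 1, 1 and 0 at passage 6, and 2 and 0 for the difference. Without counts, precision at low FPKM cannot be given.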
